A study of Mus musculus with 18 samples.

Results

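Genes that mark successive stages of adult neurogenesis were examined in RNA-Seq of the ventral dentate gyrus of adult male mice. The set holds 9 genes chosen by symbol, of 34620 genes listed in the count files: Sox2 and Hes5 for neural stem cells, Mki67 and Top2a for dividing progenitors, Eomes and Neurod1 for progenitors committed to the neuronal lineage, and Sox11, Dcx and Igfbpl1 for neuroblasts and immature neurons. All 9 had enough reads to be among the 17421 genes tested. None of the 9 passed the test against WT in F1 or in F2 males, and their levels in the 6 libraries stayed within a range of 1.24-fold (Hes5) to 1.83-fold (Top2a) from the lowest to the highest library. Of 100 other genes of the same stages or of signals to their niche, 8 passed in F1 and 7 in F2. Among these were the mitotic kinase gene Plk1, which was lower in both generations, and the niche chemokine gene Cxcl12, which was higher in both. Plk1 had 155 and 89 reads in the 2 WT libraries, and the Cxcl12 call in F1 was lost by edgeR's quasi-likelihood test. Of all genes tested, 3.77% were higher and 8.54% lower in F1, and 3.86% higher and 8.10% lower in F2, against the same WT libraries.

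The study asked whether a maternal environment set by a deficit in the serotonin 1A receptor leaves lasting changes in the hippocampus of male offspring that do not carry the mutant allele. The animals were Swiss Webster males 8 to 12 weeks old. WT males had WT mothers and grandmothers and came from a separate line bred alongside. F1 males were genetically WT sons of mothers heterozygous for the receptor gene (5HT1A-/+, called H). The study's methods derive them from crosses of H females with H males, so their fathers were H as well. F2 males were sons of F1 females mated with WT males, so that their mothers were WT and their grandmothers 5HT1A-/+. Each group had 2 libraries, made from microdissected tissue of animals from at least 3 litters. How many animals went into a library is not stated, so the p-values measure the spread between libraries, which may be partly technical. The same 2 WT libraries served as reference for F1 and for F2, and the 2 comparisons are therefore not independent.

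The subgranular zone of the dentate gyrus is a site where neurons are made throughout adult life in rodents. Radial glia-like stem cells, which share many genes with astrocytes, divide to give intermediate progenitors, these become neuroblasts, and the neuroblasts mature into granule cells that join the layer. Each step has its own transcription factors and structural proteins, and the cells of the earlier steps are rare beside the mature granule cells.

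The level of each gene is given as CPM, its read count scaled to the depth of the library after TMM normalization, which corrects for differences in library composition. Reads on genes numbered between 26358165 and 33727936 per library. Mature granule cell markers were high in every library: Prox1, the transcription factor that keeps granule cell identity, ranged from 228 to 345 CPM and Calb1, a calcium-binding protein of mature granule cells, from 265 to 392 CPM. Markers of other cells were also counted in every library, with Aqp4 of astrocytes between 97.4 and 189 CPM and Mbp of oligodendrocytes between 457 and 1200 CPM. Gad1, listed here as a marker of inhibitory neurons, was between 307 and 375 CPM. That is near the level of Prox1 and Calb1, and which cells its reads came from was not tested. Libraries of a group differed by more than read sampling, with a chi-square per degree of freedom from 19.2 to 24.9. The 2 WT libraries stood apart in the myelin genes of oligodendrocytes, whose summed level was 71.2% and 129% of the WT mean.

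Promoter sequence was looked at for the genes of dividing cells, because many genes used in late cell cycle carry a short element, the cell cycle genes homology region (CHR, TTTGAA), together with CCAAT boxes (CCAAT) that recruit the factor NF-Y, and for Hes5, a target of Notch signalling that acts through the factor RBPJ (TGGGAA). RefSeq promoters on GRCm38.p6, a later build than the one used for the counts, were found for 8 of the 9 genes. They were also found for Plk1 and Birc5, the cell cycle genes that fell, and for Mcm6, which rose. The 150 bases before the transcription start are printed 5′ to 3′ on the strand of the gene, with matches to the motifs searched in capitals, on either strand.
Hes5 (chr4:154960773-154960922, plus strand): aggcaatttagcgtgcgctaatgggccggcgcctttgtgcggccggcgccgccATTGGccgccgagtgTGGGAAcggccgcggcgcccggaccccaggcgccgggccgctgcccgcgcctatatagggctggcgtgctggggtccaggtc
Mki67 (chr7:135716380-135716529, minus strand): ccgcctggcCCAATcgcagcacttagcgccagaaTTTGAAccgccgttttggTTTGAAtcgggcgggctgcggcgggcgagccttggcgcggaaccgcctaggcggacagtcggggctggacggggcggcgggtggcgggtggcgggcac
Top2a (chr11:99024190-99024339, minus strand): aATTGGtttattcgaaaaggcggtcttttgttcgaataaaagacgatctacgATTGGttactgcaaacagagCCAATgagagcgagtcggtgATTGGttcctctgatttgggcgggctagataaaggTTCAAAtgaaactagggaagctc
Plk1 (chr7:122159285-122159434, plus strand): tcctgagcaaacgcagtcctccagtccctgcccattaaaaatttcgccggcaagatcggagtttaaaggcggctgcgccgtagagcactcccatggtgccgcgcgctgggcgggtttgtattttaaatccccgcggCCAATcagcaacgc
Birc5 (chr11:117849087-117849236, plus strand): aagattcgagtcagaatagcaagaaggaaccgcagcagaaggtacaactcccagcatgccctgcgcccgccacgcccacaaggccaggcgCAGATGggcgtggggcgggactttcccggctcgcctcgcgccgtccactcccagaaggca

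In the 250 bases before the start, Mki67 had CHR letters beginning 116 and 98 bases before the start, and Top2a had them 179 and 23 bases before it, the latter on the opposite strand. CHR letters stood in 16.3% of 27025 RefSeq promoters of that length. Mki67 had 3 CCAAT boxes and Top2a had 6, where 34.5% of promoters had at least 1. These motifs were not particular to the genes of dividing cells. CCAAT boxes also stood in the promoters of Sox2, Hes5, Eomes, Sox11, Dcx and Mcm6, and Sox11 had CHR letters as well. In the Plk1 promoter there was 1 CCAAT box, 14 bases before the start, and no CHR letters, and the Birc5 promoter held neither. Hes5 had RBPJ letters 82 and 226 bases before the start, the latter on the opposite strand, and 21.5% of promoters had such letters. The capitals in Birc5 mark CAGATG, an E-box of proneural factors found in 14.5% of promoters. Other motifs searched were AACAAT, bound by SOX factors (9.65% of promoters), and TATAAA, the TATA box (13.0%), and no match of one motif overlapped that of another in these promoters. A match of letters is a description and not evidence that a factor binds there.

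Sox2 encodes a transcription factor that keeps neural stem cells undifferentiated, and astrocytes and oligodendrocyte precursors also express it. It is a gene of 1 exon on chromosome 3 from 34548927 to 34551383 (mm9, plus strand), within the span of the noncoding gene Sox2ot but sharing no exon with it. Sox2 measured 36.5 and 47.9 CPM in the WT libraries, 39.0 and 41.4 CPM in F1, and 48.6 and 45.1 CPM in F2. Both F1 values lay between the WT values, and of the F2 values 1 lay above them. The log2 fold change against WT was -0.07 in F1 (standard error 0.15, 95% interval -0.36 to 0.22, adjusted p = 0.794, edgeR exact test with Benjamini-Hochberg adjustment over all genes tested) and 0.15 in F2 (interval -0.13 to 0.44, adjusted p = 0.517 by edgeR). The F2 libraries were above both F1 libraries, by 0.22 on the log2 scale (adjusted p = 0.785 by edgeR).

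Hes5 encodes a repressor of neuronal differentiation that Notch signalling switches on in stem cells. Its 2 exons lie on chromosome 4 from 154335032 to 154336480 (mm9, plus strand), and a gene on the opposite strand shares exon bases with it. The library kit named in the labels does not mark strand, so reads from these bases cannot be told apart. Hes5 had 7.77 and 8.48 CPM in WT, 9.64 and 7.84 CPM in F1, and 8.79 and 7.83 CPM in F2. The 3 groups overlapped, and Hes5 had the narrowest range of the 9 genes. Its log2 fold change was 0.11 in F1 (interval -0.28 to 0.50, adjusted p = 0.775 by edgeR) and 0.03 in F2 (interval -0.36 to 0.42, adjusted p = 0.951 by edgeR).

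**Figure D1:**
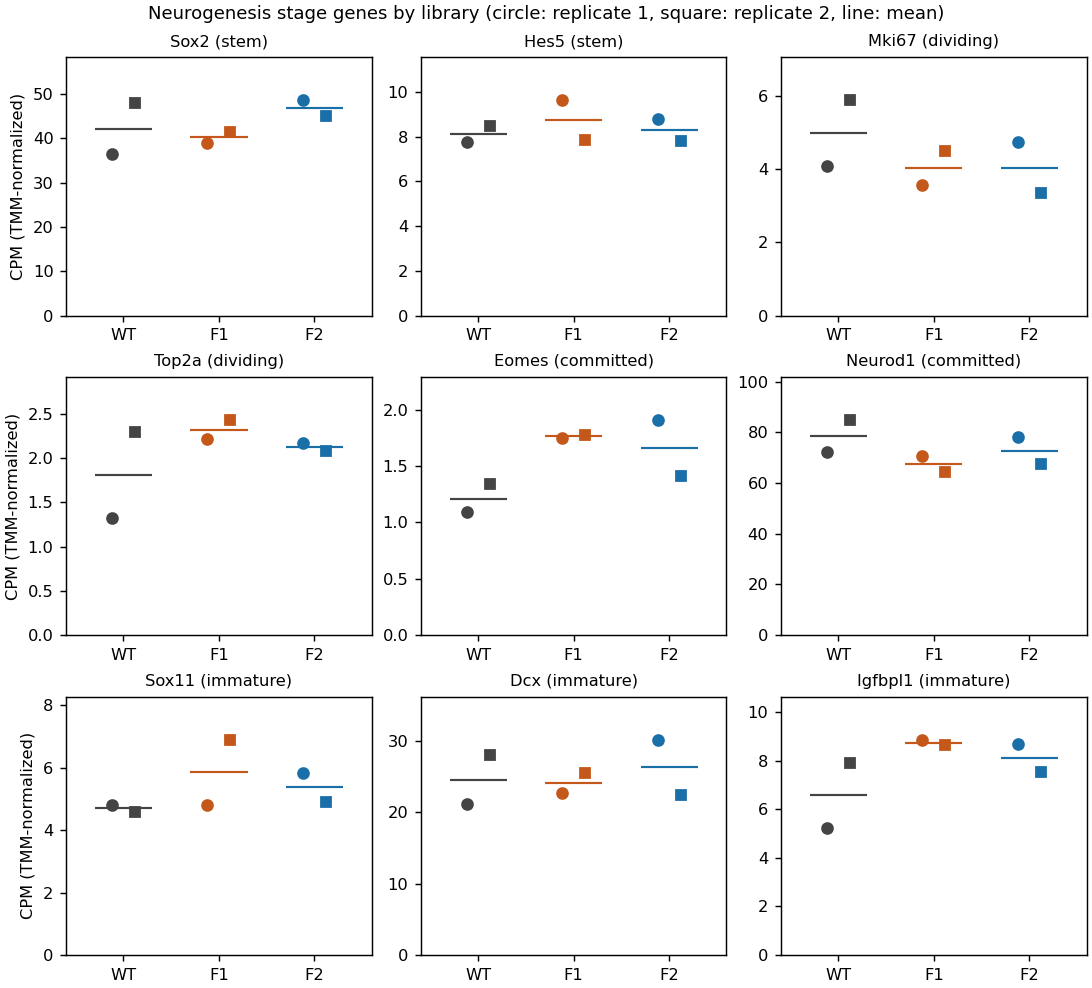
Level of each of the 9 genes in CPM (vertical axes, each from 0) in the 2 WT, 2 F1 and 2 F2 libraries, with a circle for replicate 1, a square for replicate 2 and a line at the group mean. Hes5, Mki67 and Dcx overlap in every pair of groups, and Eomes is higher in the 4 offspring libraries than in either WT library.

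Mki67, the gene of the proliferation marker Ki-67, a protein that coats chromosomes of dividing cells, is on chromosome 7 from 142881471 to 142908062 (mm9, minus strand). It had 4.09 and 5.88 CPM in WT, 3.57 and 4.50 CPM in F1, and 4.75 and 3.34 CPM in F2. Each offspring group had 1 library below both WT libraries and 1 between them. The log2 fold change was -0.30 in F1 (standard error 0.27, interval -0.83 to 0.23) and -0.30 in F2 (interval -0.82 to 0.23), with adjusted p = 0.473 and 0.489 by edgeR. On the fold scale the F1 interval ran from 0.564 to 1.17, so these libraries could not resolve a moderate decrease. Without WT replicate 2 the log2 fold change was -0.01 in F1 and -0.01 in F2, and over all leave-outs it ran from -0.54 to -0.01 in F1 and -0.57 to -0.01 in F2.

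Top2a encodes topoisomerase II alpha, which untangles DNA before cell division, and lies on chromosome 11 from 98854257 to 98885503 (mm9, minus strand) with a small nucleolar RNA gene within its exons. It was counted with 45 and 65 reads in WT, 67 and 75 in F1, and 58 and 56 in F2, which is 1.32 and 2.29 CPM, 2.21 and 2.43 CPM, and 2.17 and 2.08 CPM. The 2 WT libraries differed more from each other, by 0.79 on the log2 scale, than the group means did. Its log2 fold change was 0.37 in F1 (standard error 0.31, interval -0.23 to 0.97, adjusted p = 0.447 by edgeR) and 0.25 in F2 (interval -0.36 to 0.85, adjusted p = 0.659 by edgeR). The 2 markers of dividing cells thus had fold changes of opposite sign, with 95% intervals that include 0.

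Eomes (Tbr2), the transcription factor of intermediate progenitors, is on chromosome 9 from 118387330 to 118395250 (mm9, plus strand). It had the fewest reads of the 9 genes, with 37 and 38 in WT, 53 and 55 in F1, and 51 and 38 in F2. Scaled, these were 1.09 and 1.34 CPM in WT, 1.75 and 1.78 CPM in F1, and 1.91 and 1.41 CPM in F2. All 4 F1 and F2 libraries were above both WT libraries. A lack of overlap with WT held for 60.4% of all genes tested in F1 and 63.0% in F2. Eomes was also the only 1 of the 9 genes whose group difference exceeded the gaps between the libraries within each group. The difference between log2 group means was 0.55 in F1 and 0.44 in F2, and the gaps were 0.30 in WT, 0.03 in F1 and 0.43 in F2. The margin in F2 was thus narrow, and the share of all genes tested with such a difference was not determined. In the test across all genes the log2 fold change was 0.55 in F1 (standard error 0.31, interval -0.07 to 1.16, adjusted p = 0.234 by edgeR) and 0.46 in F2 (standard error 0.32, interval -0.16 to 1.08, adjusted p = 0.355 by edgeR). The counting error of 1 library was between 13.5% and 16.4% for this gene.

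Neurod1, a basic helix-loop-helix factor needed for new granule neurons to survive and mature, remains on in mature granule cells. It lies on chromosome 2 from 79292678 to 79296908 (mm9, minus strand), and its exons overlap those of Cerkl on the same strand and of a gene on the opposite strand. Reads in the shared bases are dropped or cannot be told apart. Neurod1 had 72.2 and 84.9 CPM in WT, 70.6 and 64.3 CPM in F1, and 78.1 and 67.6 CPM in F2. Both F1 values were below both WT values, and the F2 values overlapped with WT. The log2 fold change was -0.22 in F1 (standard error 0.13, interval -0.47 to 0.04, adjusted p = 0.241 by edgeR) and -0.11 in F2 (interval -0.36 to 0.15, adjusted p = 0.616 by edgeR).

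Sox11, a transcription factor of committed precursors and immature neurons, is annotated with 1 exon of 2013 bases on chromosome 12 from 28025562 to 28027574 (mm9, minus strand). It measured 4.82 and 4.58 CPM in WT, 4.82 and 6.90 CPM in F1, and 5.83 and 4.90 CPM in F2. The F1 mean rested mostly on 1 library, and both F2 libraries were slightly above WT. Its log2 fold change was 0.32 in F1 (interval -0.15 to 0.78, adjusted p = 0.377 by edgeR) and 0.19 in F2 (interval -0.28 to 0.66, adjusted p = 0.636 by edgeR).

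Dcx, the gene of doublecortin, a microtubule-binding protein of migrating and newly formed neurons, is a widely used marker of adult neurogenesis. It is on chromosome X from 140290385 to 140367854 (mm9, minus strand). Dcx was counted with 716 and 799 reads in WT, 688 and 786 in F1, and 808 and 604 in F2, corresponding to 21.1 and 28.1 CPM, 22.7 and 25.5 CPM, and 30.2 and 22.4 CPM. Both F1 values lay inside the WT range, and the F2 libraries were as far apart as the WT libraries. The log2 fold change was -0.03 in F1 (standard error 0.18, adjusted p = 0.948 by edgeR) and 0.10 in F2 (standard error 0.18, adjusted p = 0.769 by edgeR). As folds, the interval was 0.763 to 1.26 in F1 and 0.834 to 1.38 in F2.

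Igfbpl1, a gene of the insulin-like growth factor binding protein family that is active in neuroblasts, is on chromosome 4 from 45822340 to 45839795 (mm9, minus strand). It had 5.24 and 7.92 CPM in WT, 8.88 and 8.65 CPM in F1, and 8.71 and 7.54 CPM in F2. The F1 libraries were above both WT libraries, but the WT libraries were 0.60 apart on the log2 scale, more than the 0.44 between the log2 means of F1 and WT. Igfbpl1 had the smallest adjusted p of the 9 genes in F1, 0.194 by edgeR, with a log2 fold change of 0.42 (standard error 0.23, interval -0.03 to 0.87). In F2 the log2 fold change was 0.31 (interval -0.14 to 0.76, adjusted p = 0.379 by edgeR).

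Across the 9 genes, 0 passed an adjusted p of 0.01 by edgeR in F1 in either direction, where 3.77% of all genes tested were higher and 8.54% lower, and 0 passed in F2, where the background was 3.86% higher and 8.10% lower. The count was also 0 at an unadjusted p under 0.05, which 32.6% of all genes passed in F1 and 32.4% in F2, and 0 by the quasi-likelihood test and by DESeq2. Log2 fold changes ran from -0.30 to 0.55 in F1, with 5 above and 4 below 0, and from -0.30 to 0.46 in F2, with 7 above and 2 below. The median was 0.11 in F1 and 0.15 in F2, against 0.01 and 0.0 over all genes tested. In F1, 3 genes had libraries that did not overlap with WT (Eomes and Igfbpl1 higher, Neurod1 lower), and in F2, 2 did (Eomes and Sox11 higher). A lack of overlap is common with 2 libraries a group: it held for 60.4% of all genes tested in F1 and 63.0% in F2. Between F2 and F1, 0 of 9 passed by edgeR (background 0.304% higher and 0.436% lower), also 0 at an unadjusted p under 0.05 (background 8.64%). Between these groups Sox2 was higher and Top2a lower in F2 without overlap of the libraries, as for 39.1% of all genes tested.

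**Figure D2:**
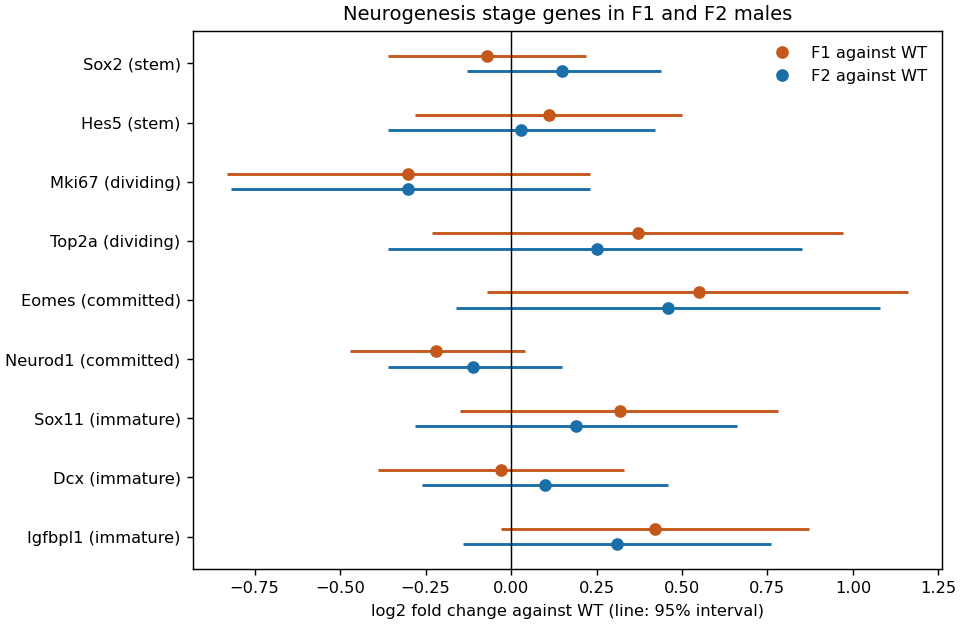
Log2 fold change against WT (horizontal axis) of the 9 genes in F1 and in F2, with lines for the 95% interval computed from the standard error. The estimates lie between -0.30 and 0.55, and every interval includes 0.

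Levels of different genes were compared per kilobase of exon. The lengths come from GENCODE M1, while the annotation used for counting is not given, and Hes5 and Neurod1 share exon bases with other genes. The order of genes near each other may therefore depend on the lengths used. Neurod1 was the highest with a mean over the 6 libraries of 26.7 CPM per kb (23.6 to 31.1), followed by Sox2 with 17.5 (14.8 to 19.8) and Hes5 with 6.16 (5.7 to 7.07), and these ranges did not overlap. Sox11 with 2.64, Igfbpl1 with 2.41 and Dcx with 1.98 CPM per kb formed a middle group in which the ranges of neighbours overlapped. Mki67 with 0.432, Eomes with 0.372 and Top2a with 0.23 CPM per kb were lowest, again with overlapping neighbours, and their ranges were below that of Dcx. This order did not follow the stages. Neurod1, Sox2 and Hes5 stood at the top, and the genes of dividing cells and intermediate progenitors at the bottom. The part of mature granule cells or glia in these levels was not tested.

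The spread within groups had a pattern of its own. WT replicate 1 was the lowest of all 6 libraries for 6 of the 9 genes, and 8 of 9 were higher in WT replicate 2 than in WT replicate 1, where 53.0% of all genes tested were higher in replicate 1. In F2, 9 of 9 were higher in replicate 1 than in replicate 2, against 49.8% of all genes tested, and in F1, 3 of 9 were. The median distance between the 2 libraries of a group was 0.39 on the log2 scale for the 9 genes in WT, against 0.17 for all genes tested, while in F1 it was 0.14 against 0.18 and in F2 0.21 against 0.15. Replicate numbers carry no order, and the 9 genes are not independent readings. Leaving out WT replicate 1 or WT replicate 2 moved the log2 fold change of Igfbpl1 in F1 within 0.15 to 0.75 and that of Top2a within 0.02 to 0.82, and moved Igfbpl1 in F2 within 0.04 to 0.64. Without F1 replicate 2, Sox11 in F1 was 0.04, and without F2 replicate 1, Eomes in F2 was 0.23 and Sox11 in F2 0.06. Neurod1 in F1 was -0.09 without WT replicate 2. No gene passed an adjusted p of 0.01 in any leave-out by edgeR. The smallest value there was 0.039, for Igfbpl1 in F1 without WT replicate 2.

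Similarity of profile was measured by the Pearson correlation of log2 CPM over the 6 libraries with each of 14658 other genes of at least 1 CPM, and is a description with few points. The 2 genes most like each, given for 8 of the 9, were Gpx8 (0.983) and Zfp11 (0.977) for Sox2, Ppp3r1 (0.989) and Eda (0.975) for Hes5, and Cd38 (0.985) and Zfp605 (0.982) for Top2a. For Eomes they were Epb4.1l5 (0.993) and Tnfaip3 (0.993), for Neurod1 Atp7b (0.995) and BC042782 (0.989), for Sox11 Gria1 (0.998) and Tdrkh (0.989), for Dcx Stx17 (0.991) and Acadsb (0.989), and for Igfbpl1 Plscr1 (0.989) and Emcn (0.986). None of these is another of the 9 genes. With so few libraries, between 37 and 347 genes reached a correlation above 0.9 with each gene. Among the 9 themselves the highest correlations were Top2a with Igfbpl1 (0.954), Eomes with Igfbpl1 (0.904) and Sox2 with Dcx (0.824), and the lowest was Neurod1 with Sox11 (-0.495). The pair of dividing-cell genes Mki67 and Top2a had only 0.230.

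To place the 9 genes, 5 lists of other genes were examined, of the same stages and of signals that act on the niche. These stage lists, as they are called here, held 103 genes in all, of which 100 were tested. At an adjusted p of 0.01 by edgeR, 8 of these passed in F1, 4 higher and 4 lower, against a background of 3.77% and 8.54%. In F2, 7 passed, 6 higher and 1 lower, against 3.86% and 8.10%. By edgeR's quasi-likelihood test the counts were 2 and 2: Mcm6 and Plk1 passed in F1 and Plk1 and Cxcl12 in F2. The other 11 calls described here were lost by that test, with adjusted p from 0.0104 (Notch2 in F1) to 0.0338 (Birc5 in F1). By DESeq2 the count was 5 in F1, with Pax6, Ccnd1 and Birc5 lost, and 7 in F2, with Gfap and Reln lost and 2 other genes passing. By stage, the number of genes that passed in F1 was 2 of 17 for stem cells, 4 of 34 for the cell cycle, 0 of 9 for committed progenitors, 1 of 19 for immature neurons and 1 of 21 for signals that act on the niche. In F2 it was 1, 3, 0, 0 and 3 of the same lists. Whether a list has fewer or more calls than other genes was not tested.

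**Figure D3:**
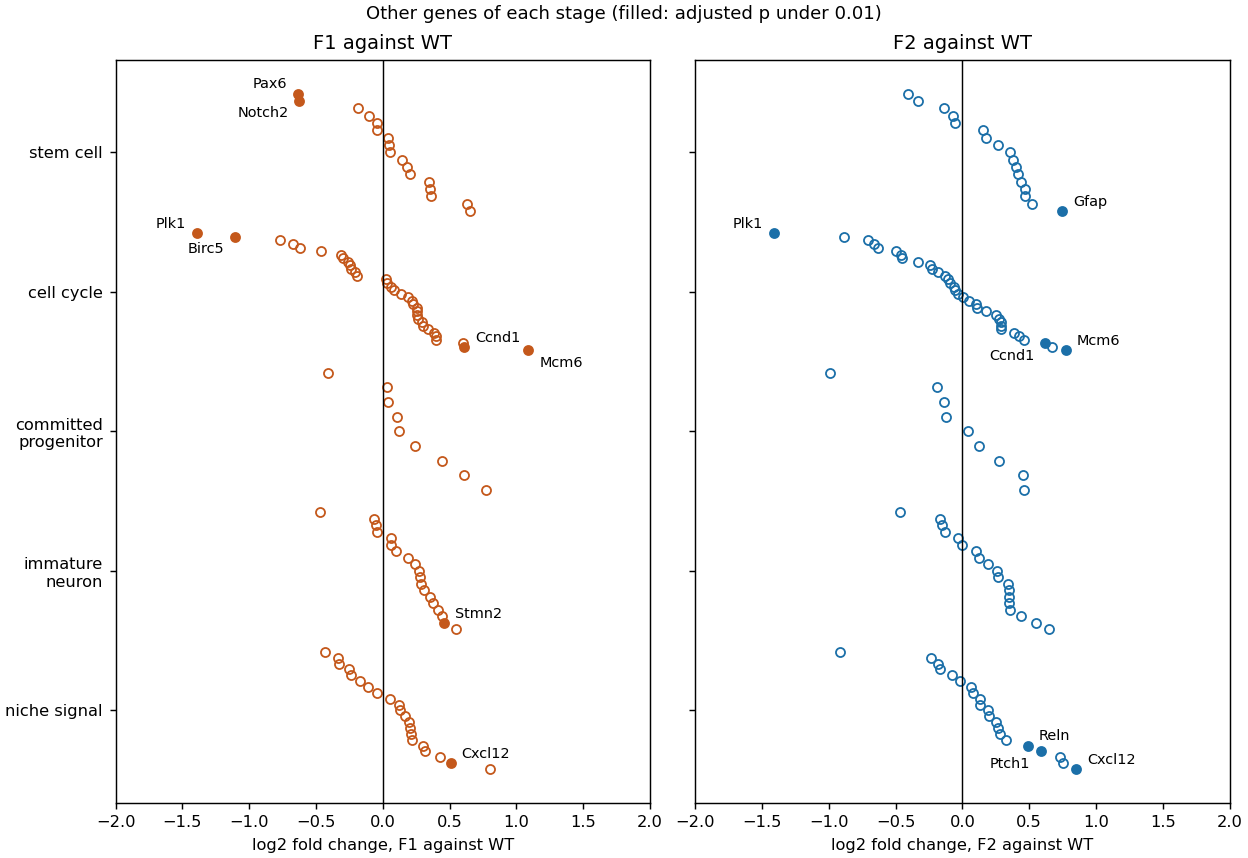
Log2 fold change against WT (horizontal axis) of each tested gene of the 5 stage lists (rows) in F1 (left) and F2 (right), sorted within a list, with filled points and names for genes at an adjusted p under 0.01. Most points are open and lie on both sides of 0, with Plk1 the farthest to the left in both panels.

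Among stem cell genes, Pax6, a transcription factor of radial glia, and Notch2, a receptor that holds stem cells quiescent, fell in F1. Notch2 had 43.6 and 47.0 CPM in WT, 25.7 and 33.0 CPM in F1, and 44.2 and 38.3 CPM in F2. The F1 libraries were below WT and F2 libraries alike (log2 fold change -0.62 in F1, adjusted p = 0.000494, and -0.14 in F2, adjusted p = 0.572, by edgeR), while the difference between F2 and F1 had adjusted p = 0.0725 by edgeR. Pax6 had 11.6 CPM in each WT library, 6.83 and 8.06 CPM in F1, and 8.52 and 8.98 CPM in F2, and its log2 fold change was -0.64 in F1 and -0.40 in F2 (adjusted p = 0.00597 and 0.108 by edgeR). The call of Pax6 in F1 was lost whichever of the 6 libraries was left out (adjusted p up to 0.0767 by edgeR, without F1 replicate 1), and that of Notch2 was lost without WT replicate 2 or F1 replicate 1, where it was 0.0355. Gfap, an intermediate filament gene of stem cells and astrocytes, rose in F2 by 0.75 (363 and 285 CPM against 190 and 197 CPM in WT, adjusted p = 0.00311 by edgeR), and its call was kept in 3 of 6 leave-outs, with the largest adjusted p, 0.143, without F2 replicate 1. Its log2 fold change in F1 was 0.65 (222 and 387 CPM, adjusted p = 0.0109 by edgeR), and without F1 replicate 2 it was 0.21 (adjusted p = 0.453 by edgeR). The median log2 fold change of the list was 0.06 in F1 and 0.36 in F2, with 11 and 12 of 17 genes above 0.

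Of the cell cycle genes, Mcm6 and Ccnd1 rose and Plk1 and Birc5 fell in F1, and Mcm6 and Ccnd1 rose and Plk1 fell in F2. Plk1, the kinase that drives entry into and exit from mitosis, had 155 and 89 reads in WT, 45 and 45 in F1, and 39 and 39 in F2, or 4.56 and 3.13 CPM, 1.49 and 1.46 CPM, and 1.46 and 1.45 CPM. The 4 offspring libraries were nearly level, at less than the lower WT library, and the log2 fold changes were -1.39 in F1 (standard error 0.29, adjusted p = 5.16e-05) and -1.41 in F2 (standard error 0.29, adjusted p = 6.21e-05) by edgeR. Without WT replicate 1, the adjusted p of Plk1 was 0.0252 in F1 and 0.0281 in F2 by edgeR, with log2 fold changes of -1.09 and -1.10, and in F2 the call was also lost without either F2 library. Birc5, the gene of survivin, part of the complex that corrects chromosome attachment, fell in F1 by 1.11 on the log2 scale, from 3.15 and 2.71 CPM in WT to 1.82 and 0.907 CPM (adjusted p = 0.00659 by edgeR). Its call was kept in 1 of 6 leave-outs, with the largest adjusted p, 0.18, without F1 replicate 2. In F2 it had 1.61 and 1.56 CPM, a log2 fold change of -0.89 and adjusted p = 0.0359 by edgeR.

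Mcm6, a subunit of the helicase that opens DNA for replication, had 9.82 and 8.45 CPM in WT, 19.5 and 19.4 CPM in F1, and 19.6 and 11.7 CPM in F2. It rose in F1 by 1.09 on the log2 scale (standard error 0.22, adjusted p = 3.01e-05 by edgeR), a call that held in every leave-out. In F2 it rose by 0.77 (adjusted p = 0.00564 by edgeR), resting mostly on F2 replicate 1, without which the log2 fold change was 0.36 and the adjusted p = 0.394 by edgeR, and the call was also lost without either WT library. Ccnd1, the gene of cyclin D1, which starts the cycle and is also used by glia and their precursors, had 10.6 and 9.26 CPM in WT, 15.1 and 15.3 CPM in F1, and 17.2 and 13.4 CPM in F2. All 4 offspring libraries were above WT (log2 fold change 0.61 in F1 and 0.62 in F2, adjusted p = 0.00759 and 0.00711 by edgeR), and the calls were kept in 1 of 6 leave-outs in F1 (largest adjusted p 0.126, without WT replicate 2) and 3 of 6 in F2 (0.269, without F2 replicate 1). Mki67 and Top2a, as given above, did not pass in either direction. The median of the list of 34 genes was 0.11 in F1 and -0.05 in F2, with 21 and 16 genes above 0.

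No gene of committed progenitors passed in F1 or F2 by edgeR at an adjusted p of 0.01, and at 0.05, which 20.8% of all genes tested passed in F1 and 20.7% in F2, there were 2 higher in F1 and 1 lower in F2. These 3, named here after their values were seen, were Insm1, a zinc-finger factor of neuronal progenitors (2.44 and 2.82 CPM in WT, 4.16 and 4.79 CPM in F1, log2 fold change 0.77, adjusted p = 0.0166 by edgeR), Elavl2, an RNA-binding protein of early neurons (log2 fold change 0.45 in F1, adjusted p = 0.0236 by edgeR), and Neurog2, a proneural factor (2.18 and 1.90 CPM in WT, 1.38 and 0.668 CPM in F2, log2 fold change -0.99, adjusted p = 0.032 by edgeR). In F1, Neurog2 had 1.62 and 1.46 CPM, also below both WT libraries (log2 fold change -0.41, adjusted p = 0.426 by edgeR). In F2, Insm1 had 3.63 and 2.71 CPM and overlapped with WT.

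Of the immature neuron genes, Stmn2, a microtubule regulator of growing neurites, rose in F1. It had 292 and 317 CPM in WT, 439 and 396 CPM in F1, and 244 and 298 CPM in F2. The F1 libraries were above all others, with log2 fold change 0.46 against WT (standard error 0.13, adjusted p = 0.00464 by edgeR). That call was kept in 3 of 6 leave-outs, with the largest adjusted p, 0.101, without WT replicate 1. In F2 the value was -0.17 (adjusted p = 0.402 by edgeR), and between F2 and F1 it was -0.62 (adjusted p = 0.000489 by edgeR). The latter had adjusted p = 0.278 by edgeR without F2 replicate 1, and 0.0634 by the quasi-likelihood test. At an adjusted p of 0.05 the list of 19 had 3 genes higher and 1 lower in F1, and 4 higher in F2. That level was passed by 20.8% of all genes tested in F1 and 20.7% in F2, counting both directions. The gene lower in F1, named here after its value was seen, was Calb2 (log2 fold change -0.47, adjusted p = 0.0399 by edgeR). Both of its F1 libraries were below both WT libraries. In F2 the log2 fold change of Calb2 was -0.15 (adjusted p = 0.602 by edgeR). Which cells the reads of Stmn2 and Calb2 came from was not tested. The median log2 fold change of the list was 0.27 in F1 and 0.26 in F2, with 15 and 13 of 19 genes above 0. The medians over all genes were 0.01 and 0.0. Dcx, Sox11 and Igfbpl1 had -0.03, 0.32 and 0.42 in F1 and 0.10, 0.19 and 0.31 in F2.

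Signals that act on the niche included 1 gene that passed in both generations. Cxcl12, a chemokine that guides and maintains progenitors and is made by endothelial cells and neurons, rose from 60.9 and 70.3 CPM in WT to 95.1 and 91.4 CPM in F1 and 132 and 105 CPM in F2. The log2 fold change of Cxcl12 was 0.51 in F1 (standard error 0.14, adjusted p = 0.00251) and 0.85 in F2 (standard error 0.14, adjusted p = 3.77e-08) by edgeR. The F2 call held in every leave-out, and the F1 call in 3 of 6, with the largest adjusted p, 0.0942, without WT replicate 1. Ptch1, the receptor of sonic hedgehog, rose in F2 from 24.7 and 23.5 CPM to 38.1 and 34.4 CPM (log2 fold change 0.59, adjusted p = 0.00893 by edgeR). Reln, the secreted protein that guides migrating neurons, rose in F2 from 35.6 and 37.3 CPM to 56.8 and 45.7 CPM (log2 fold change 0.49, adjusted p = 0.00875 by edgeR). Their calls were kept in 2 and 3 of 6 leave-outs, with the largest adjusted p, 0.163 for Ptch1 and 0.297 for Reln, without F2 replicate 1.

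Several of the 9 genes are also used by cells other than neuronal precursors, and in bulk tissue fewer cells of a type and less RNA per cell cannot be told apart. Beside Sox2, Hes5 and the stem cell list, 1 of 12 astrocyte markers rose in F1 and 7 of 12 in F2 by edgeR, none lower. Of all genes tested, 3.77% were higher in F1 and 3.86% in F2. The summed level of the astrocyte markers was 95.9% and 104% of the WT mean in WT, 116% and 140% in F1, and 157% and 133% in F2. Gfap and Slc1a3 are in both lists. Sox2 and Hes5, with log2 fold changes of 0.15 and 0.03 in F2, did not pass, where Gja1, a gap junction gene of astrocytes, had 0.53 (adjusted p = 0.0023 by edgeR) and the water channel gene Aqp4 0.51 (adjusted p = 0.0614 by edgeR). The part of astrocytes in the values of the stem cell genes was not tested.

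Beside Mki67, Top2a, Ccnd1 and Sox11, which oligodendrocyte precursors can express, 3 of 9 precursor markers rose in F1 and 3 of 9 in F2, none lower. The share of all genes tested that rose was 3.77% in F1 and 3.86% in F2. Pdgfra, their growth factor receptor, went from 16.3 and 23.3 CPM in WT to 28.9 and 35.0 CPM in F1 and 36.2 and 36.6 CPM in F2 (log2 fold change 0.69 and 0.88, adjusted p = 0.00131 and 2.28e-05 by edgeR). The summed level of the 9 markers was 145% and 146% of the WT mean in F1 and 128% and 158% in F2, against 95% and 105% in WT. Their part in the cell cycle values was not tested. Myelin genes of oligodendrocytes passed in 4 of 14 cases in F1 and 2 of 14 in F2, all higher, and had summed levels of 193% and 146% in F1 and 100% and 188% in F2.

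The remaining lists give the setting of the 9 genes. Their counts stand beside 3.77% of all genes tested higher and 8.54% lower in F1, and 3.86% higher and 8.10% lower in F2. Whether a list departs from these shares was not tested. Of 10 microglia markers, 1 was higher in F1 and 6 in F2, with Csf1r at 30.6 and 30.2 CPM in WT and 47.8 and 41.5 CPM in F2. Of 10 endothelial markers, 1 was higher in F1 and 2 in F2, and of 12 interneuron markers 1 and 3, none of either lower. Reln, which passed in F2, is in both the interneuron and the niche list. Of 9 granule cell markers, 1 was lower in F1 and 1 in F2, and 0 were higher at an adjusted p of 0.01 by edgeR. At 0.05, which 20.7% of all genes tested passed in F2 in either direction, 3 granule cell markers were higher in F2. There 8 of 9 were above 0 with a median log2 fold change of 0.32, and the summed level was 126% and 113% of the WT mean. In F1 the median was -0.10 and the summed level 85.1% and 105%. Of 11 markers of mossy and CA cells, 1 was higher and 1 lower in F1, and 1 higher and 3 lower in F2. Of 9 ependyma and choroid plexus markers 5 were tested, none with an adjusted p under 0.05 by edgeR. Their summed level was 21.4 to 26.9 CPM, and Ttr of choroid plexus was between 0.187 and 1.10 CPM.

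**Figure D4:**
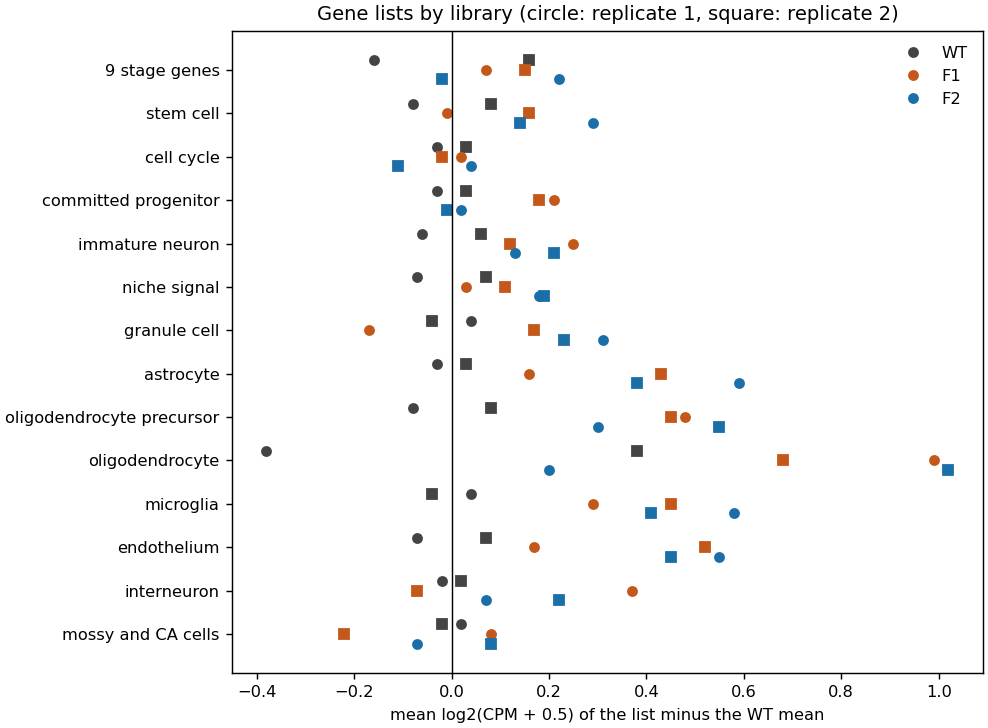
Mean log2(CPM + 0.5) of the 9 genes and of each gene list in each library, minus its WT mean (horizontal axis), with circles for replicate 1 and squares for replicate 2. The 9 genes spread from -0.16 to 0.22 with groups intermixed, whereas the immature neuron, astrocyte, oligodendrocyte precursor, microglia and endothelial lists have every offspring library above both WT libraries. For the immature neuron list this does not hold for the summed CPM. That was 97.4% and 103% of the WT mean in WT, 123% and 102% in F1, and 97.5% and 103% in F2.

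Seen over these lists, the 9 genes stayed within -0.16 and 0.22 of their WT mean in every library, on the scale of mean log2(CPM + 0.5), and their 2 WT libraries marked nearly the whole of that range, at -0.16 and 0.16. The astrocyte list spanned -0.03 to 0.59 and the precursor list -0.08 to 0.55 on the same scale. The stage lists had ranges like that of the 9 genes or narrower. They spanned -0.08 to 0.29 for stem cells, -0.11 to 0.04 for the cell cycle and -0.03 to 0.21 for committed progenitors. For immature neurons the span was -0.06 to 0.25, and for niche signals -0.07 to 0.19. A narrow range was thus not particular to the 9 genes.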

How the data were processed

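RNA was measured in 6 libraries of microdissected ventral dentate gyrus, 2 each from WT, F1 and F2 males. The authors ran Illumina HiSeq machines for 50 bp from a single end, aligned the reads to mm9 with TopHat (TopHat2 2.0.2 in the submitters' processing notes) without searching for new junctions, and deposited HTSeq counts per gene in intersection-strict mode, which drops reads that reach beyond exons or fit several genes. The gene annotation and the strand setting are not given in the sources used here. These counts are raw and not normalized. The 5 summary rows of HTSeq were left out: reads on no feature made up 12.2% to 17.4% of uniquely placed reads in F1 and F2 and 17.7% and 20.7% in WT, and ambiguous reads 1.33% to 1.53%. Bisulfite samples were not analysed here.

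The main test was the exact test of edgeR 4.0.16 (R 4.3.3) after filterByExpr and TMM, with common and tagwise dispersion over all 6 libraries. Benjamini-Hochberg adjustment ran over the 17421 tested genes, with a threshold of 0.01, that of the study's results. The study's methods name tagwise dispersion and not the test. Standard errors come from the mean counts and dispersion, and 95% intervals are 1.96 standard errors to each side. The common dispersion was 0.0113, a coefficient of variation of 10.6% between libraries. Both the 2 libraries per group and, for genes with few reads, the depth limit the precision. Alternatives were the quasi-likelihood test with and without a replicate block, the likelihood-ratio test with one, DESeq2 1.42.0, other scalings, filters and dispersions, leaving out each library, and a 0.05 threshold. The fits were also run on simulated counts that gave every gene the same dispersion, unlike the tagwise dispersions of the main test. That run does not measure error rates in the real libraries, and nothing here rests on it.

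Replicate numbers did not pair the libraries: across genes, the replicate 1 minus 2 difference of WT correlated with that of F1 at -0.00862 and that of F2 at -0.0898, and F1 with F2 at -0.23. Exon lengths, positions and overlaps come from GENCODE M1 on mm9 and promoters from RefSeq on GRCm38.p6. Tables used pandas 2.3.3 and SciPy 1.17.1 under Python 3.11.15, and plots matplotlib 3.10.9. The 9 genes, the lists and the rules were chosen with earlier results of these data known. Genes named from the stage lists were those at the threshold in F1 or F2, at most 4 per list and direction with a mean of at least 0.5 CPM, the 2 genes most correlated with each of the 9 (for Mki67 not reported here), and defining markers of other cells.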

Additional observations from a re-analysis of the deposited data

Results flagged for a closer look

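For Sox2, both F1 libraries were below the WT mean and both F2 libraries above it, with log2 fold changes of -0.07 and 0.15, neither past the threshold. Between F2 and F1 it was 0.22 higher in F2 on the log2 scale (adjusted p = 0.785 by edgeR's exact test), and both F2 libraries were above both F1 libraries. Stmn2 differed between the generations, with F2 against F1 at -0.62 on the log2 scale (adjusted p = 0.000489 by edgeR), higher than WT in F1 and not in F2. The call was kept in 4 of 6 leave-outs and lost without F1 replicate 1 or F2 replicate 1, and it was lost by the quasi-likelihood test (adjusted p = 0.0634).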

How the results depend on the processing

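The count of 0 of 9 neurogenesis genes past the threshold was the same under every alternative run, in F1, F2 and F2 against F1, the replicate block and DESeq2 included. The count over the stage lists, 8 in F1 and 7 in F2, depended on the processing. In F1 it was 2 by the quasi-likelihood test, 2 by that test with the replicate block, 6 with this block in a likelihood-ratio test, 5 by DESeq2 and 18 at a threshold of 0.05. In F2 it was 2 by the quasi-likelihood test with or without the replicate block, 4 with the block in a likelihood-ratio test, 4 with library size only, 15 with dispersion from the 2 groups compared and 20 at a threshold of 0.05. Leaving out each library gave 2 to 7 genes in F1 and 1 to 14 in F2. Crossing the F2 numbers in the block, an alternative added after the data were seen, gave 11 in F1 and 15 in F2. The replicate numbers were not shown to pair the libraries. Among the 9 genes, 8 of 18 log2 fold changes against WT changed sign in at least 1 leave-out, none passing the test. The values over the leave-outs ran, in F1, from -0.25 to 0.15 for Sox2, -0.04 to 0.26 for Hes5 and -0.22 to 0.20 for Dcx (also 0.06 without F1 replicate 1). In F2 they ran from -0.03 to 0.37 for Sox2, -0.05 to 0.12 for Hes5 (also -0.02), -0.10 to 0.69 for Top2a, -0.22 to 0.02 for Neurod1 and -0.13 to 0.33 for Dcx (also -0.09). The read counts of Eomes and Top2a, at most 75 in a library, limit what these 2 genes can show.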
